A study of Mus musculus with 18 samples.

Results

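The stage dependence of the response to p53 restoration was read from all 18 mouse lung tumours of the series, which are every array deposited. For each gene, the difference between treated and untreated tumours was taken in grade 3 and in grade 2, and the second was subtracted from the first. This difference of differences is called the interaction: it is above 0 where the treated minus untreated difference was higher in grade 3 than in grade 2. The labels name grade 3 tumours adenocarcinomas and grade 2 tumours adenomas, and the series title asks whether sensitivity to p53 restoration depends on the stage. Genes were also sorted by which of the 4 groups had the mean that stood apart from the others, since an interaction can come from a treated group or from an untreated group.

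Tumours were microdissected from 6 mice of mixed C57/B6 and 129SvJae strain background, aged 10 weeks. The 10 treated tumours were from mice given tamoxifen intraperitoneally in 2 injections and were collected on day 7 after the first, and their p53 is labelled restored. The 8 untreated tumours were from mice without this treatment. Which alleles the mice carried, what promoter or Cre drove the tumours and what agent started them is not given in the sources used. The restored gene itself, Trp53, was not analysed here. All 6 tumours of the treated grade 3 group were taken from mouse 8688, a female. Of the 4 treated grade 2 tumours, 3 were from mouse 8688 and 8639T4 from the male mouse 8639. The 4 untreated grade 3 tumours were 8584T3, 8565T1, 8629T10 and 8629T12, and the 4 untreated grade 2 tumours were 8700T1, 8700T3, 8565T3 and 8565T4, all from males. Treatment, mouse and sex cannot be told apart in grade 3, and nearly so in grade 2. No mouse held both treated and untreated tumours, and mice 8688 and 8565 held tumours of both grades. Tumours of a mouse are not independent, so p-values over tumours are too small. Signals are log2 values per gene. The array medians ran from 6.05 to 6.18, and precision is limited by how many arrays there are. The excess of 3' over 5' signal in control transcripts, a sign of RNA quality, was 2.62 in 8688T3 and 1.85 in 8639T4, against 0.621 to 1.05 in the other 16 tumours.

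The transcription factor p53 halts division or starts cell death by raising the transcription of target genes such as Cdkn1a, and Mdm2 marks it for destruction. The ARF protein, made from the Cdkn2a locus, restrains Mdm2, and strong signalling through the RAS-MAPK cascade can raise ARF. Lung adenomas that progress to adenocarcinoma can lose features of the alveolar epithelium, which has surfactant-producing type 2 cells and flat type 1 cells, and can switch on genes of the gut and stomach.

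No gene passed the test of the interaction. Of 12393 genes, 7300 exceeded their array's median signal on 4 or more arrays and were tested, and 0 had a limma adjusted p under 0.05 (smallest adjusted p = 0.127). A limma test against a log2 difference of at least 1 also called 0. At an unadjusted p under 0.05 there were 665 genes, 9.11% of those tested, of which 394 (5.40%) were above 0 and 271 (3.71%) below 0. The treatment difference itself had 34 genes past the threshold in grade 3 (0.466%), of which 14 rose and 20 fell, and 645 at an unadjusted p under 0.05. In grade 2 it had 5 genes past the threshold (0.0685%), of which 2 rose and 3 fell, and 510 at an unadjusted p under 0.05. A count that is larger in grade 3 is thus not shown to differ between the grades by any single gene's test of that difference. Grade 3 also had 10 tumours against 8 in grade 2, and so somewhat smaller errors. The count of 0 for the interaction became 15 without the untreated grade 3 tumour 8565T1, 3 without all tumours of mouse 8565 and 124 when arrays were weighted by their quality, and was at most 1 without any other single tumour. With the mouse as a fixed term, which compares grades only within mice 8688 and 8565, it was 0. The limma adjusted p was then 0.424 for Afp and 0.999 for every other of the 73 named genes followed through the alternatives.

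Hbb-b2, a beta globin gene that marks blood in a tumour, was past the threshold in both grades. In grade 3 its mean was 9.97 ± 0.67 (SD, n = 4) without treatment and 6.79 ± 0.38 (SD, n = 6) with it. In grade 2 the means were 10.43 ± 0.19 and 7.31 ± 0.57 (SD, n = 4 each). It fell by 3.09 on the log2 scale in grade 3 and by 3.00 in grade 2 (limma adjusted p = 0.00123 and 0.00256), and its interaction was -0.10 (SE 0.44). No treated tumour overlapped with an untreated one. The treated tumours thus had a lower signal of this blood marker in both grades. In bulk tumours fewer cells of a type and less RNA per cell cannot be told apart, and treatment is tied to mouse here too. Of 9 measured genes on the erythroid and platelet list, only 2 were tested. The part of this blood marker in the results that follow was not tested.

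The other 4 genes past the threshold in grade 2 differed the same way in grade 3. Eif4ebp1, a repressor of translation, rose by 1.12 in grade 2 (limma adjusted p = 0.0220), and its difference in grade 3 was 0.55 (limma adjusted p = 0.271). Itgb3bp, a centromere protein, rose by 1.25 in grade 2 (limma adjusted p = 0.00347) against 0.67 in grade 3. Gbp2b, an interferon-induced GTPase, fell by 5.02 in grade 2 (limma adjusted p = 0.0166) against -3.34 in grade 3, and Il1r1, the interleukin 1 receptor, fell by 1.09 (limma adjusted p = 0.0215) against -0.62. The 4 were picked by the grade 2 test, so their larger difference there is part of the choice, and none passed the interaction test.

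**Figure D1:**
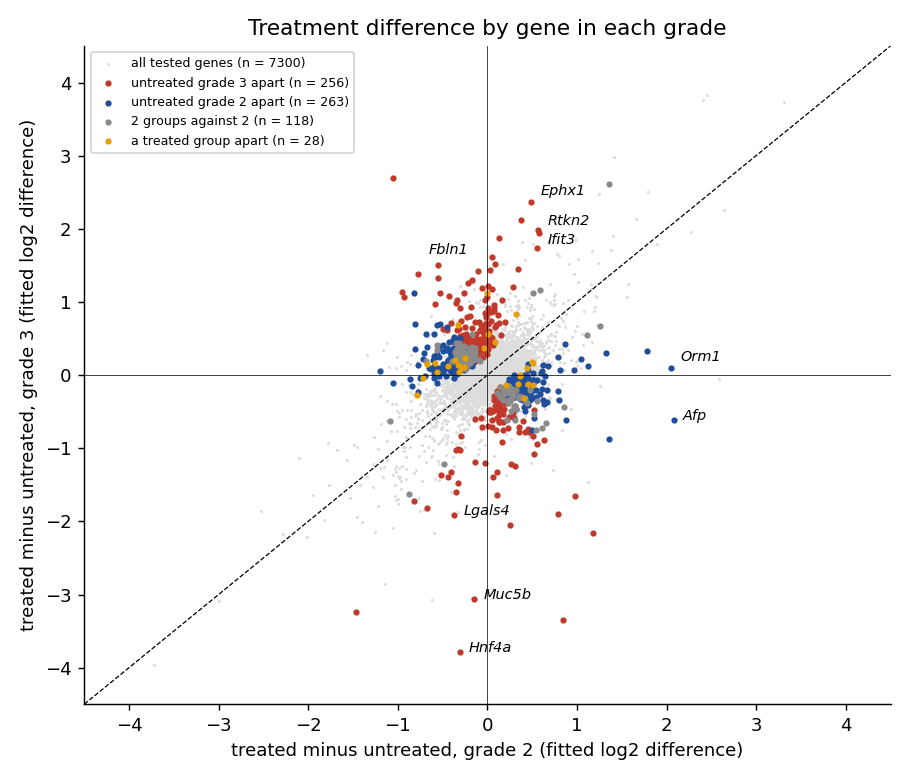
Fitted treated minus untreated log2 difference of each of the 7300 tested genes in grade 2 (x axis) and in grade 3 (y axis); points on the dashed diagonal have an interaction of 0. Coloured points are the 665 genes with an unadjusted interaction p under 0.05, by the group whose mean stood apart, and 4 genes lie beyond the axis limit of 4.5; many red points lie near the vertical axis and many blue points near the horizontal axis.

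Among the 665 genes with the smallest interaction p-values, an untreated group was the one that stood apart far more often than a treated group. The group that stood apart was read from the largest gap between the 4 sorted group means. It was an untreated group for 519 genes (78.0%), against 4031 (55.2%) of all 7300 genes. Untreated grade 3 stood apart for 256 genes, high for 91 and low for 165, and untreated grade 2 for 263, high for 142 and low for 121. A treated group stood apart for 28 genes (4.21%), treated grade 3 for 6 and treated grade 2 for 22, against 1325 (18.2%) of all genes. In another 109 genes (16.4%, against 7.04% of all genes) the means parted crosswise, with untreated grade 3 and treated grade 2 on 1 side. The genes were chosen here by the same contrast, so these shares are a description. The treated tumours also came almost all from mouse 8688 and the untreated ones from 4 mice. Which group stood apart thus cannot be told apart from shared origin. The counts moved with single tumours: 889 genes had untreated grade 2 apart without 8565T3 and 73 without 8565T4, 435 had untreated grade 3 apart without 8565T1, and 64 had a treated group apart without 8639T4.

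**Figure D2:**
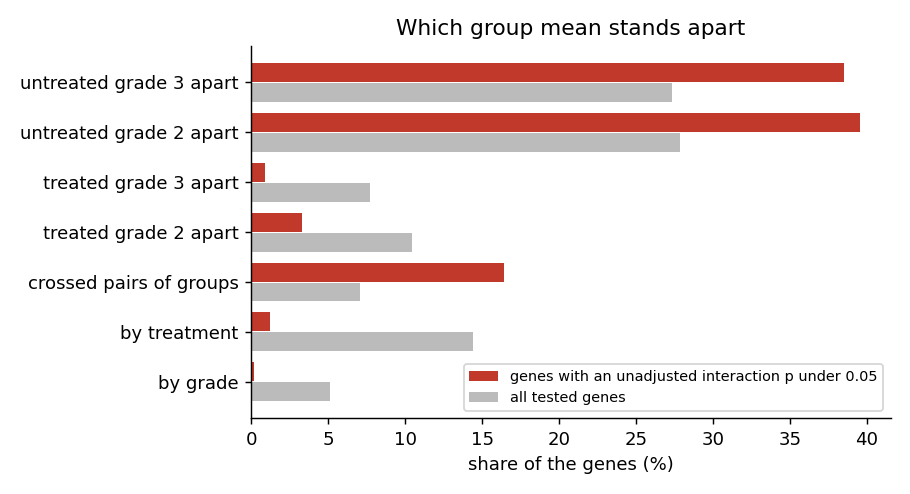
Share of genes (x axis, percent) by the group whose mean stood apart (y axis), for the 665 genes with an unadjusted interaction p under 0.05 (red) and for all 7300 tested genes (grey). An untreated group stood apart for 78.0% of the red set and a treated group for 4.21%. The treated tumours came almost all from a single mouse.

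A group was also called apart where its tumours did not overlap with those of any other group, which held for 113 of 7300 genes (1.55%). Untreated grade 3 was above all other tumours for 35 genes (0.479%) and below them for 24 (0.329%). Untreated grade 2 was above for 20 (0.274%) and below for 28 (0.384%). Treated grade 2 was above for 4 (0.0548%) and below for 2 (0.0274%), and treated grade 3, the largest group, for 0 in either direction. The rule is harder to meet for the 6 treated grade 3 tumours than for a group of 4. The treated tumours also came almost all from a single mouse, so the counts of the groups are not on equal terms. Of the 113 genes, 70 had an unadjusted interaction p under 0.05. Leaving out tumours loosens this rule by construction. The 59 genes with untreated grade 3 apart became 205 without 8565T1, 194 without 8584T3, 108 without 8629T10 and 90 without 8565T3. The 48 with untreated grade 2 apart became 244 without 8565T3, 134 without 8700T1 and 85 without 8565T1. The 6 with a treated group apart became 32 without 8639T4, 22 without 8688T8, 21 without 8688T10, 17 without 8584T3, 13 without 8688T9 and 12 without 8688T6. Over all alternatives the 3 counts reached 912, 608 and 95, with only the mice that held both grades.

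Grade differences were smaller among treated than among untreated tumours. The median size of the grade 3 minus grade 2 difference over all 7300 genes was 0.179 on the log2 scale in untreated and 0.0900 in treated tumours. Within the single treated mouse 8688 it was 0.110, and within the untreated mouse 8565, which had 1 grade 3 and 2 grade 2 tumours, it was 0.144. Mouse 8688 had 6 and 3, and sizes from fewer tumours carry more noise. The treated tumours came almost all from a single mouse and the untreated ones from 4, so the closeness of the treated groups cannot be told apart from shared origin. In the 665 genes the medians were 0.462 in untreated and 0.148 in treated tumours, and 0.267 within mouse 8565 and 0.171 within mouse 8688. Those genes were chosen by a contrast of the same tumours, so these values only describe the choice.

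The genes with untreated grade 3 apart and high included Muc5b, a gel-forming mucin of airway glands. It was above the array median on the 4 untreated grade 3 arrays and on no other, so it entered the test through that group and had to differ, as did Sdcbp2, and both are given as a description. Its signals were 6.34 in 8584T3, 7.16 in 8565T1, 6.44 in 8629T10 and 7.79 in 8629T12. The treated grade 3 tumours ran from 2.89 to 5.10 with a median of 3.61. Untreated grade 2 tumours had 3.30, 3.65, 4.17 and 3.83, and treated grade 2 tumours 3.51, 3.55, 3.71 and 3.42. All 4 untreated grade 3 tumours were above every other tumour. The fitted difference was -3.06 (SE 0.46) in grade 3 and -0.15 (SE 0.47) in grade 2. The interaction was -2.92 (SE 0.53), and the value from mice 8688 and 8565 alone was -2.87.

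Lgals4, a galectin of the gut epithelium, had the same shape at a level above the array median on every array. The untreated grade 3 tumours 8584T3, 8565T1, 8629T10 and 8629T12 had 8.66, 8.42, 7.87 and 9.53. All other tumours lay between 6.26 and 6.99. In grade 3 it fell by 1.91 (SE 0.29, limma adjusted p = 0.00483), in grade 2 the difference was -0.37 (SE 0.29), and the interaction was -1.54 (SE 0.34, limma adjusted p = 0.315). It passed the interaction test (limma) without the untreated grade 3 tumour 8629T10, without mouse 8629 and with array weights. Hnf4a, a transcription factor of gut and liver, had 6.91, 9.69, 9.02 and 10.03 in these 4 tumours. Treated grade 3 tumours ran from 3.27 to 6.59 with a median of 5.26, untreated grade 2 tumours had 2.85, 2.53, 3.49 and 5.43, and treated grade 2 tumours 3.29, 2.84, 2.92 and 3.84. Untreated grade 3 did not overlap with the rest, and treated grade 3 tumours had a wide spread and overlapped with grade 2. Hnf4a was above the array median on 5 arrays, the 4 untreated grade 3 arrays among them. It thus entered the test mainly through that group, and its lack of overlap is a description. Its interaction was -3.48 (SE 1.05, limma adjusted p = 0.539), and its grade 3 difference of -3.79 (SE 0.90) did not pass (limma adjusted p = 0.0720).

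Cldn2, a tight junction protein of leaky epithelia, also fell in grade 3, by 1.39 (SE 0.30, limma adjusted p = 0.0438). Its means were 9.23 ± 0.35 (SD, n = 4) in untreated and 7.82 ± 0.38 (SD, n = 6) in treated grade 3, against 8.07 ± 0.52 and 7.73 ± 0.27 (SD, n = 4 each) in untreated and treated grade 2. The gene lists used here were written with earlier results of these data known, so counts over their members are a description. Of the 35 genes on the gut and gastric list, 34 were measured and 12 tested. Unadjusted interaction p-values under 0.05 were found for 0 above 0 and 4 below 0 (Hnf4a, Lgals4, Cldn2 and Muc5b), against 5.40% and 3.71% of all genes. Lgals4 and Cldn2, which did not enter the test through a single group, were past the threshold in grade 3. The median interaction was -0.99 over the 12 tested members and -0.44 with no filter, against 0.02 over all tested genes. A gene of this list could pass the filter on low signals mainly through the group where it was high, so the first median overstates the list, and with the mouse as a fixed term the median was -0.32. Over all 34 measured members, with no filter, the list's mean signal per tumour was 5.02 to 5.79 in untreated grade 3, 4.25 to 4.95 in treated grade 3, 4.28 to 4.85 in untreated grade 2 and 4.34 to 4.45 in treated grade 2. Untreated grade 3 lay above the rest, and its lowest tumour, 8584T3, was close to the highest treated one.

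Other genes without overlap in this direction were Sdcbp2, Scara3 and Clec4n. Sdcbp2, a syntenin-like scaffold protein, had an interaction of -2.30 (SE 0.54). Scara3, a scavenger receptor family member, fell by 3.23 (SE 0.63, limma adjusted p = 0.0272) in grade 3 and its difference in grade 2 was -1.47 (SE 0.64). Scara3 was above the array median on only 6 arrays. Clec4n, which encodes dectin-2 of macrophages, fell by 1.36 (SE 0.30, limma adjusted p = 0.0490) in grade 3, with an interaction of -0.85 (SE 0.34). The macrophage list as a whole did not follow Clec4n. Of its 18 tested members, 0 had an unadjusted interaction p under 0.05 (9.11% of all genes). The mean signal of the list was 9.50 to 9.79 in untreated and 9.47 to 9.88 in treated grade 3.

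**Figure D3:**
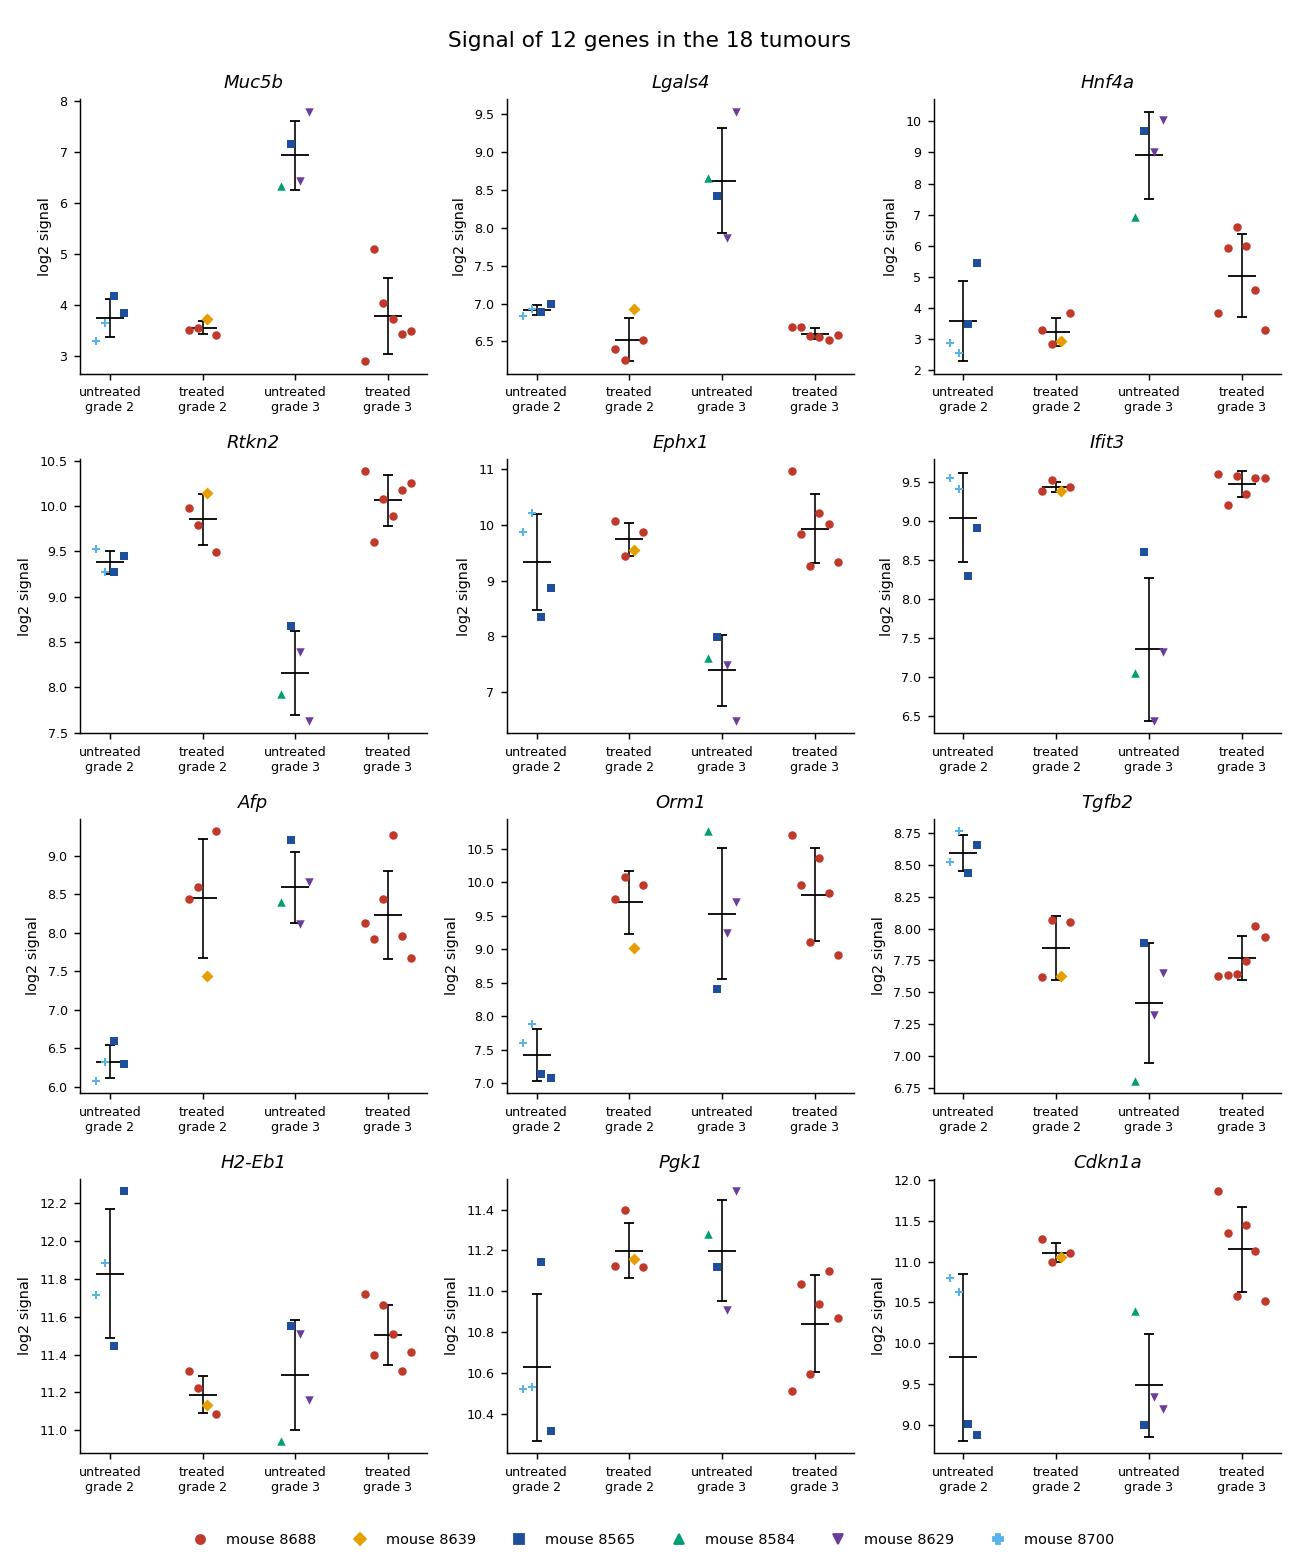
Log2 signal (y axis) of 12 genes in each of the 18 tumours by group (x axis); each point is a tumour, with the mouse given by shape and colour, and bars are the mean and SD of the group. Untreated grade 3 lies apart for Muc5b, Lgals4, Hnf4a, Rtkn2 and Ephx1, and untreated grade 2 for Afp, Orm1 and Tgfb2, while Cdkn1a is higher in the treated groups of both grades.

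The genes with untreated grade 3 apart and low included markers of alveolar type 1 cells. Rtkn2, a marker of type 1 cells, had 7.93 in 8584T3, 8.68 in 8565T1, 8.39 in 8629T10 and 7.63 in 8629T12. Treated grade 3 tumours ran from 9.60 to 10.38 with a median of 10.13. Untreated grade 2 tumours had 9.52, 9.27, 9.27 and 9.45, and treated grade 2 tumours 9.98, 9.79, 10.14 and 9.50. All 4 untreated grade 3 tumours were below every other tumour. Rtkn2 rose by 1.95 (SE 0.25) in grade 3 (limma adjusted p = 0.00150), its difference in grade 2 was 0.58 (SE 0.26), and its interaction was 1.37 (SE 0.29, limma adjusted p = 0.315). The interaction passed without 8565T1 and with array weights, and was 0.99 within mice 8688 and 8565.

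Of the 13 tested type 1 markers, 12 had an interaction above 0 (52.8% of all genes), with a median of 0.54. Of these 12, 6 had an unadjusted p under 0.05, against 5.40% of all genes. Untreated grade 3 stood apart for 9 of the 13, against 27.3% of all genes. Hopx, a homeodomain protein of type 1 cells, had means of 10.87 ± 0.39 (SD, n = 4) in untreated grade 3 and 11.63 ± 0.16 (SD, n = 6) in treated grade 3, with no overlap, and 11.62 ± 0.25 and 11.52 ± 0.28 (SD, n = 4 each) in untreated and treated grade 2. Its interaction was 0.81 (SE 0.25, limma adjusted p = 0.539). Sema3a, a secreted guidance cue, had an interaction of 1.21 (SE 0.34, limma adjusted p = 0.539), which passed without 8565T1 and was 0.35 within mice 8688 and 8565. The mean of the 13 markers was 9.50 to 9.92 in untreated grade 3, 10.02 to 10.41 in treated grade 3, 10.03 to 10.46 in untreated grade 2 and 10.02 to 10.43 in treated grade 2. Untreated grade 3 was thus the low group, without overlap, and the highest of its 4 tumours was 8565T1.

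Ephx1, the microsomal epoxide hydrolase of xenobiotic metabolism, had 7.61, 7.98, 7.49 and 6.48 in 8584T3, 8565T1, 8629T10 and 8629T12. Treated grade 3 tumours ran from 9.26 to 10.96 with a median of 9.93. Untreated grade 2 tumours had 9.87 and 10.21 in mouse 8700 and 8.36 and 8.88 in mouse 8565, and treated grade 2 tumours had 10.08, 9.45, 9.56 and 9.88. Untreated grade 3 was below all others, and within untreated grade 2 both tumours of mouse 8565 were below both of mouse 8700. Ephx1 rose by 2.36 (SE 0.48, limma adjusted p = 0.0377) in grade 3 and its interaction was 1.87 (SE 0.56, limma adjusted p = 0.539), against 0.77 within mice 8688 and 8565. Of 25 tested genes of drug metabolism and the oxidant-response factor NRF2, 20 had an interaction above 0 and 3 an unadjusted p under 0.05, against 52.8% and 5.40% of all genes, and the median was 0.17. Fancl, a ubiquitin ligase of the Fanconi anaemia repair pathway, and Lrrc57 had smaller interactions without overlap, 0.35 (SE 0.14) and 0.43 (SE 0.14).

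Interferon response genes were low in 3 of the 4 untreated grade 3 tumours. Ifit3, an interferon-induced antiviral protein, had 7.05 in 8584T3, 6.43 in 8629T10 and 7.32 in 8629T12, and 8.61 in 8565T1. Treated grade 3 tumours ran from 9.20 to 9.61 with a median of 9.56. Treated grade 2 tumours had 9.39, 9.53, 9.39 and 9.44, and untreated grade 2 tumours 9.55 and 9.42 in mouse 8700 and 8.30 and 8.91 in mouse 8565. The treated groups of both grades lay together, while the untreated grade 3 tumour 8565T1 lay with the grade 2 tumours of its own mouse. Ifit3 rose by 1.99 (SE 0.39) in grade 3 (limma adjusted p = 0.0279), and its interaction was 1.42 (SE 0.45, limma adjusted p = 0.539). Within mice 8688 and 8565 the interaction was 0.02, without mouse 8565 it was 2.57 and passed, and without 8565T1 it was 2.13 and passed. It passed with array weights too. Oasl2, an oligoadenylate synthetase-like protein, had an interaction of 1.41 (SE 0.53, limma adjusted p = 0.539), with 5.64, 8.51, 6.43 and 7.26 in 8584T3, 8565T1, 8629T10 and 8629T12, and 0.02 within mice 8688 and 8565.

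Of 26 tested interferon genes, 25 had an interaction above 0, 5 with an unadjusted p under 0.05, and untreated grade 3 stood apart for 16. Over all genes these shares were 52.8%, 5.40% and 27.3%. The median was 0.41 over all tumours, 0.76 without 8565T1, and -0.33 with the mouse as a fixed term. The list mean was 7.19, 7.26 and 7.73 in 8584T3, 8629T10 and 8629T12, and 8.38 in 8565T1. It ran from 8.23 to 8.67 in treated grade 3, from 8.08 to 8.34 in untreated grade 2, and from 7.88 in 8639T4 to 8.67 in treated grade 2. The difference over all tumours therefore followed mice 8584 and 8629, and cannot be told apart from them.

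The promoters of Ifit3 and of its family member Ifit1 are shown as 2 that hold the element through which interferon factors bind DNA. The 250 bases before the gene start are printed 5′ to 3′ on the plus strand, on which both genes lie, from RefSeq's annotation of GRCm38.p6, with matches on either strand to a core of the interferon-stimulated response element in capitals; the core searched is GAAA, any 2 letters and GAAA again. Ifit3 lies at chr19:34583279-34583528 and Ifit1 at chr19:34640639-34640888.
Ifit3: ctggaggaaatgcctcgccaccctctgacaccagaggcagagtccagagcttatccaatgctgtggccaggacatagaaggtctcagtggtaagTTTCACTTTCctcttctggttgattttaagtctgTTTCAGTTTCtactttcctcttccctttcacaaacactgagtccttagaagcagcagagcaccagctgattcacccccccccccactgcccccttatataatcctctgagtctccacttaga
Ifit1: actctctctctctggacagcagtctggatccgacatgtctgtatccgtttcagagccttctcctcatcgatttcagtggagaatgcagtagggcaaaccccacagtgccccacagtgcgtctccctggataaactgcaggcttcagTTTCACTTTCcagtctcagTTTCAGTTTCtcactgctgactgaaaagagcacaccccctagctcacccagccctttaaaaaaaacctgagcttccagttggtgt
Both hold 2 copies, which begin 156 and 122 bases before the start of Ifit3 and 104 and 85 bases before that of Ifit1. The core was found in the same window of 936 of 27025 genes (3.46%). Of the 26 tested interferon genes, 20 had a promoter in the table and 10 of these held it. Oasl2 and Trim25, with interactions of 1.41 and 0.66, held 0 copies, and Bst2, with 1.02, held 2. The median interaction was 0.45 in the 10 with it and 0.33 in the 10 without. The interaction of Ifit1 was 0.88 (SE 0.57, limma adjusted p = 0.612), with 6.20, 8.96, 7.10 and 7.78 in 8584T3, 8565T1, 8629T10 and 8629T12, so that 8565T1 was the highest of the 4, as for Ifit3. A match is a description of the letters and not of a bound site.

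Untreated grade 2 stood apart and low for Afp and Orm1, both secreted proteins of the fetal or adult liver. Afp, which encodes alpha-fetoprotein, had 6.08, 6.32, 6.60 and 6.29 in 8700T1, 8700T3, 8565T3 and 8565T4. Untreated grade 3 tumours had 8.39, 9.20, 8.11 and 8.65, treated grade 2 tumours 8.43, 8.60, 7.44 and 9.32, and treated grade 3 tumours ran from 7.68 to 9.26 with a median of 8.04. Untreated grade 2 was below all 14 other tumours, which overlapped among themselves. The interaction of -2.69 (SE 0.48) had the smallest p of all genes (limma adjusted p = 0.127). It passed without 8688T5, without 8639T4, with sex as a covariate and with array weights, and was -3.31 within mice 8688 and 8565. In grade 2 the treatment difference of 2.08 (SE 0.42) did not pass (limma adjusted p = 0.0778), and in grade 3 it was -0.61 (SE 0.41).

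Orm1, the acute-phase protein orosomucoid, had 7.60, 7.89, 7.14 and 7.08 in the untreated grade 2 tumours. All other tumours lay between 8.41 and 10.76. Its interaction was -1.96 (SE 0.58, limma adjusted p = 0.539), from a difference of 2.05 (SE 0.51) in grade 2 and 0.10 (SE 0.50) in grade 3. Hif3a, a hypoxia-inducible factor subunit, Axin1, a scaffold that restrains WNT signalling, and Erlin1, an endoplasmic reticulum protein, had the same shape with interactions of -1.45 (SE 0.68), -0.57 (SE 0.19) and -0.45 (SE 0.20). For Erlin1 the value within mice 8688 and 8565 was -0.09. Hif3a was above the array median on only 4 arrays, so its value rests largely on low signals.

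Untreated grade 2 stood apart and high for Tgfb2, a secreted ligand of the TGF-beta pathway. It had 8.52, 8.77, 8.44 and 8.66 in 8700T1, 8700T3, 8565T3 and 8565T4. Untreated grade 3 tumours had 6.80, 7.89, 7.32 and 7.65, treated grade 2 tumours 7.62, 8.07, 7.63 and 8.06, and treated grade 3 tumours ran from 7.63 to 8.02 with a median of 7.70. The 4 untreated grade 2 tumours were above all others, and treated tumours of both grades covered nearly the same range. The interaction was 1.01 (SE 0.26, limma adjusted p = 0.539), with a difference of -0.71 (SE 0.23) in grade 2 and 0.30 (SE 0.22) in grade 3. Other genes of this shape were Kcnk2, a potassium channel, with 1.51 (SE 0.58), Rgs2, a brake on G protein signalling, with 0.58 (SE 0.25), the cilium protein gene Cfap20 with 0.56 (SE 0.19) and Specc1 with 0.60 (SE 0.28).

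Type 2 cell and antigen presentation genes had interactions mostly above 0, and their mean signals were highest in untreated grade 2. Sftpc, the surfactant protein that defines type 2 cells, was between 12.31 and 13.49 in all 18 tumours, well above the array medians, as the labelled lung tissue calls for. Of 21 tested type 2 markers, 19 had an interaction above 0 (52.8% of all genes), with a median of 0.53. Of these 19, 4 had an unadjusted p under 0.05 (5.40% of all genes). Untreated grade 2 stood apart for 12 of the 21 markers, against 27.9% of all genes. Lyz2, a lysozyme shared with macrophages, had an interaction of 0.71 (SE 0.27), Lpcat1, an enzyme of surfactant lipid synthesis, 0.57 (SE 0.23), and Sftpc 0.57 (SE 0.29), with limma adjusted p-values of 0.539, 0.539 and 0.553. The list mean was 11.72 to 12.33 in untreated grade 2, 11.75 to 12.04 in treated grade 2, 11.45 to 11.99 in untreated grade 3 and 11.79 to 12.27 in treated grade 3. All 4 groups overlapped. The untreated grade 2 tumour 8565T3 was its group's lowest at 11.72.

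Of 8 tested MHC class II genes, 7 had an interaction above 0 and 4 an unadjusted p under 0.05, against 52.8% and 5.40% of all genes. Their median was 0.56. A treated group stood apart for 5 of the 8 and untreated grade 2 for 2, against 18.2% and 27.9% of all genes. H2-Eb1, a class II beta chain, had 11.72, 11.89, 11.45 and 12.26 in the untreated grade 2 tumours 8700T1, 8700T3, 8565T3 and 8565T4, and 11.31, 11.22, 11.14 and 11.09 in the treated grade 2 tumours. In grade 3, untreated tumours had 10.95, 11.55, 11.51 and 11.16, and treated tumours ran from 11.31 to 11.72 with a median of 11.46. Treated and untreated tumours did not overlap in grade 2 and overlapped in grade 3. The interaction was 0.81 (SE 0.23, limma adjusted p = 0.539), and 0.60 within mice 8688 and 8565. H2-Ab1, another class II beta chain, and Cd74, the invariant chain, had 0.60 (SE 0.27) and 0.79 (SE 0.34).

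Class I presentation genes were alike in size. Of 11 tested, 10 had an interaction above 0 and 5 an unadjusted p under 0.05, against 52.8% and 5.40% of all genes, with a median of 0.46. H2-K1, a class I heavy chain, had 0.82 (SE 0.27), the immunoproteasome subunit Psmb9 0.90 (SE 0.30) and the loading factor Tapbp 0.53 (SE 0.20). None of the 3 passed (limma adjusted p = 0.539 each), and H2-K1 did so under 1 of 33 alternatives. With the mouse as a fixed term the medians of the class II and class I lists were 0.08 and 0.22.

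**Figure D4:**
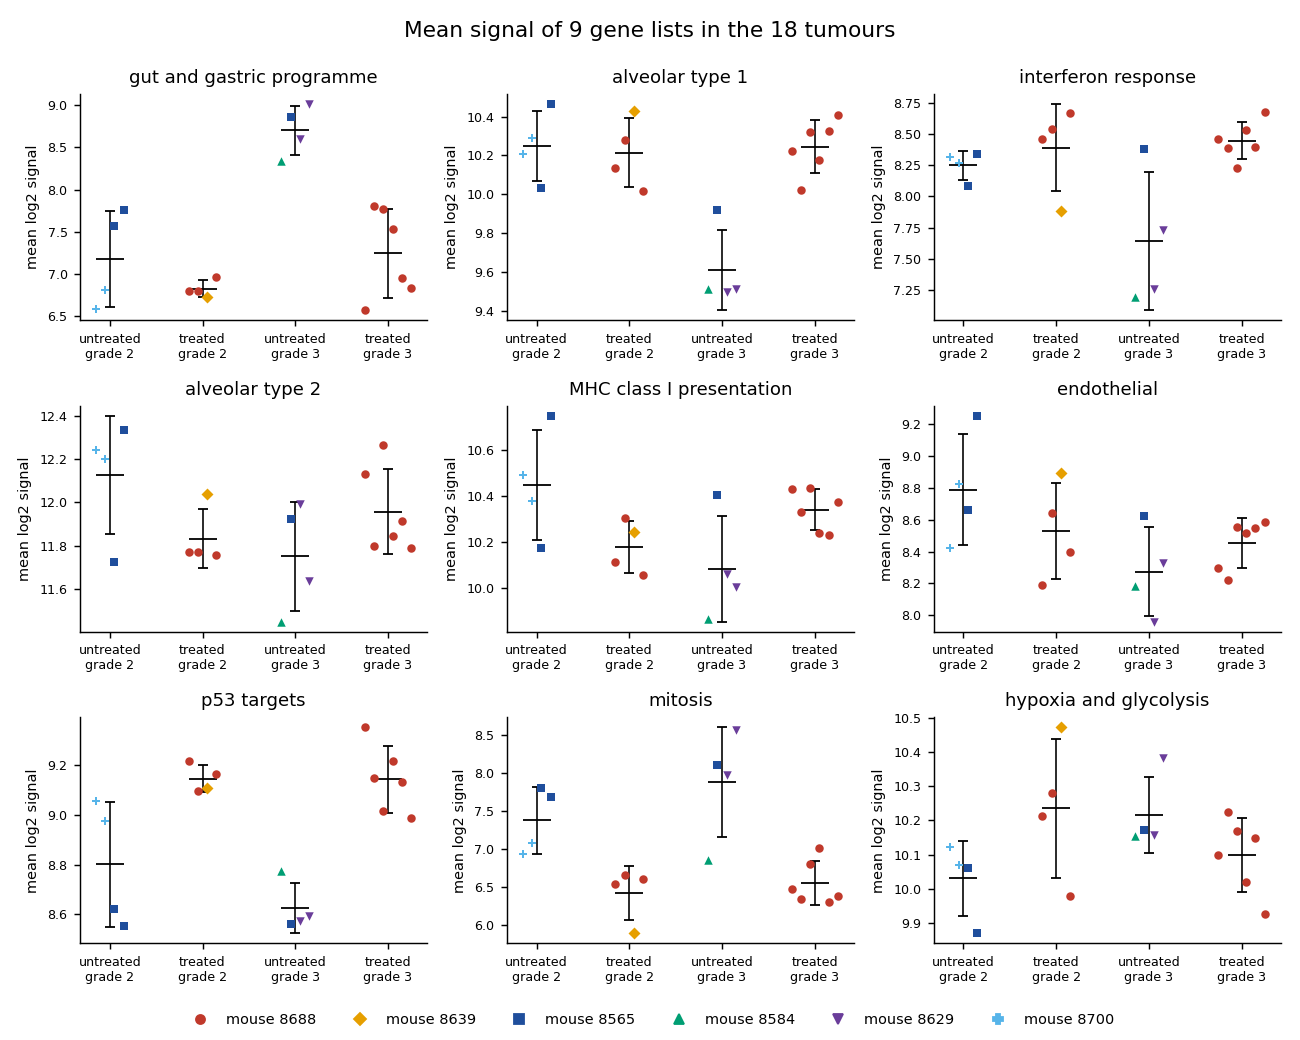
Mean log2 signal (y axis) over the tested members of 9 gene lists in each of the 18 tumours by group (x axis); each point is a tumour, with the mouse by shape and colour, and bars are the mean and SD of the group. Among tested members the gut list is high and the type 1 list low in untreated grade 3, and the p53 target list is higher in both treated groups.

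Genes of the tumour's supporting cells had interactions above 0 as well. Of 19 tested endothelial markers, 18 were above 0 with a median of 0.44, against 52.8% of all genes above 0, and 3 had an unadjusted p under 0.05 (5.40% of all genes): the adhesion molecule Pecam1 with 0.62 (SE 0.25), the VEGF receptor Kdr with 0.67 (SE 0.27) and the phosphatase Ptprb with 0.81 (SE 0.35). Their mean signal was 7.96 to 8.62 in untreated grade 3, 8.22 to 8.58 in treated grade 3, 8.42 to 9.25 in untreated grade 2 and 8.19 to 8.89 in treated grade 2. The groups overlapped, and the highest tumour was 8565T4. Of 23 tested fibroblast and matrix genes, 19 were above 0 with a median of 0.32, which was 0.21 with the mouse as a fixed term, and 4 had an unadjusted p under 0.05 (5.40% of all genes). Their mean was 9.08 to 9.87 in untreated grade 3, 9.32 to 9.72 in treated grade 3, 9.52 to 10.29 in untreated grade 2 and 9.31 to 9.51 in treated grade 2. In grade 2 the untreated tumours were all higher than the treated ones, and in grade 3 the groups overlapped.

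Fbln1, a matrix fibulin, had the widest stromal interaction of the named genes. It had 4.17, 6.44, 5.20 and 4.92 in 8584T3, 8565T1, 8629T10 and 8629T12, and treated grade 3 tumours ran from 6.16 to 7.11 with a median of 6.82. Untreated grade 2 tumours had 6.85, 7.01, 7.25 and 7.98 and treated grade 2 tumours 6.80, 6.58, 6.51 and 6.41. Its interaction was 2.06 (SE 0.45, limma adjusted p = 0.315) and 1.28 within mice 8688 and 8565. It passed without 8565T1, the untreated grade 3 tumour with the highest signal, and with array weights. Tcf21, a transcription factor of lung fibroblasts, and Mfap5, a microfibril protein, had 1.43 (SE 0.49) and 1.16 (SE 0.41). The endothelial and fibroblast lists, like the type 2 and presentation lists, had their highest mean signal in untreated grade 2. The remaining groups were not in the same order in all of these lists. The part of cell content in the type 2 and presentation results was not tested. Ribosomal protein genes, which are no markers of a cell type, also had interactions mostly above 0. Of 21 tested, 18 were above 0 against 52.8% of all genes, with a median of 0.36, and 0 had an unadjusted p under 0.05. Interactions above 0 were thus not particular to the cell type and presentation lists.

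No p53 target passed the test of the interaction, and with errors this wide an equal response in both grades was not shown either. Cdkn1a, whose product p21 inhibits the cell cycle kinases, had 11.27, 10.9996, 11.06 and 11.11 in treated grade 2 tumours and ran from 10.52 to 11.87 with a median of 11.24 in treated grade 3. Untreated grade 2 tumours had 10.80 and 10.63 in mouse 8700 and 9.02 and 8.88 in mouse 8565. Untreated grade 3 tumours had 10.40 in 8584T3, 9.001 in 8565T1, 9.34 in 8629T10 and 9.19 in 8629T12. Treated tumours did not overlap with untreated ones within a grade. Among untreated tumours, those of mice 8700 and 8584 were high and those of mice 8565 and 8629 low, in either grade. The differences were 1.53 (SE 0.43) in grade 3 and 1.24 (SE 0.44) in grade 2, and neither passed (limma adjusted p = 0.151 and 0.510). The interaction was 0.29 (SE 0.51, limma adjusted p = 0.864). It was -0.03 within mice 8688 and 8565, -0.38 without mouse 8700 and 1.01 without mouse 8565, so that its sign turned with the untreated mice used.

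Of 35 tested p53 targets, 22 had an interaction above 0, with a median of 0.18, against 3854 of 7300 (52.8%) and 0.02 over all genes. Their median treatment difference was 0.32 in grade 3 and 0.29 in grade 2. The list mean was 8.56 to 8.77 in untreated and 8.99 to 9.35 in treated grade 3. In grade 2 it was 8.55 to 9.06 in untreated and 9.09 to 9.22 in treated tumours. With the mouse as a fixed term the median interaction was 0.0051. Unadjusted p-values under 0.05 were found for 4 above 0 and 1 below 0, against 5.40% and 3.71% of all genes. Plk2, a stress-induced kinase, had 8.11, 7.51, 8.11 and 8.20 in treated grade 2 and 8.45, 8.59, 7.75 and 7.63 in untreated grade 2. Untreated grade 3 tumours had 6.36, 7.37, 6.91 and 6.77, below all others, and treated grade 3 tumours ran from 7.54 to 8.56 with a median of 7.80. Plk2 thus had the shape of the type 1 markers rather than that of Cdkn1a, with an interaction of 1.05 (SE 0.37, limma adjusted p = 0.539) and 0.30 within mice 8688 and 8565. Rrm2b, a ribonucleotide reductase subunit for repair, had 0.44 (SE 0.15). Sfn, which encodes the G2 checkpoint protein 14-3-3 sigma, ran against them with -1.52 (SE 0.43), from 6.73, 5.90, 6.08 and 7.03 in untreated grade 3 and 5.01 to 5.83 in treated grade 3. Sfn was above the array median on only 4 arrays, so its value rests largely on low signals.

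The regulators of p53 had interactions of both signs. Mdm2 had an interaction of 0.40 (SE 0.23, limma adjusted p = 0.581). Cdkn2a lay below the array median on all 18 arrays and was not tested. Its signals were 5.51, 4.95, 5.82 and 5.82 in untreated grade 3 and 4.44, 3.71, 4.56 and 4.25 in untreated grade 2, with no overlap, and 4.35 to 5.72 in treated grade 3 and 5.14, 4.08, 5.83 and 4.37 in treated grade 2. Whether its probe set tells ARF from p16, the other product of the locus, was not tested. Of 15 tested genes of the ARF and p53 regulators, 6 had an interaction above 0 (52.8% of all genes), with a median of -0.07. An unadjusted p under 0.05 was found for 1, above 0 (5.40% of all genes). That gene was Tbx2, a T-box repressor of Cdkn2a, with 0.87 (SE 0.29, limma adjusted p = 0.539). It had 6.58, 6.56, 5.63 and 5.99 in untreated grade 3 and 6.80 to 7.32 in treated grade 3. Its relative Tbx3 had 1.10 (SE 0.55).

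Targets of MAPK signalling had no common interaction. Of 19 tested, 10 were above 0 (52.8% of all genes), with a median of 0.01. An unadjusted p under 0.05 was found for 1 above 0 and 1 below 0, against 5.40% and 3.71% of all genes. Ereg, which encodes the growth factor epiregulin, had 11.55, 11.41, 11.30 and 11.88 in untreated grade 3, above all other tumours, 9.80 to 11.19 in treated grade 3, 10.18 to 11.24 in untreated grade 2 and 10.70 to 11.24 in treated grade 2. Its interaction was -0.92 (SE 0.41, limma adjusted p = 0.539). Ccnd1, cyclin D1, was the other, with 0.74 (SE 0.29). Plaur, the urokinase receptor, had -0.56 (SE 0.28) and Etv5, an ETS factor and also a type 2 cell gene, 0.73 (SE 0.53). Of 13 tested members of the cascade itself, 6 were above 0 (52.8% of all genes), with a median of -0.06. Rasa1, a GTPase-activating protein that switches RAS off, had -0.67 (SE 0.31) with its brightest probe set and 0.15 with the mean of its probe sets.

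**Figure D5:**
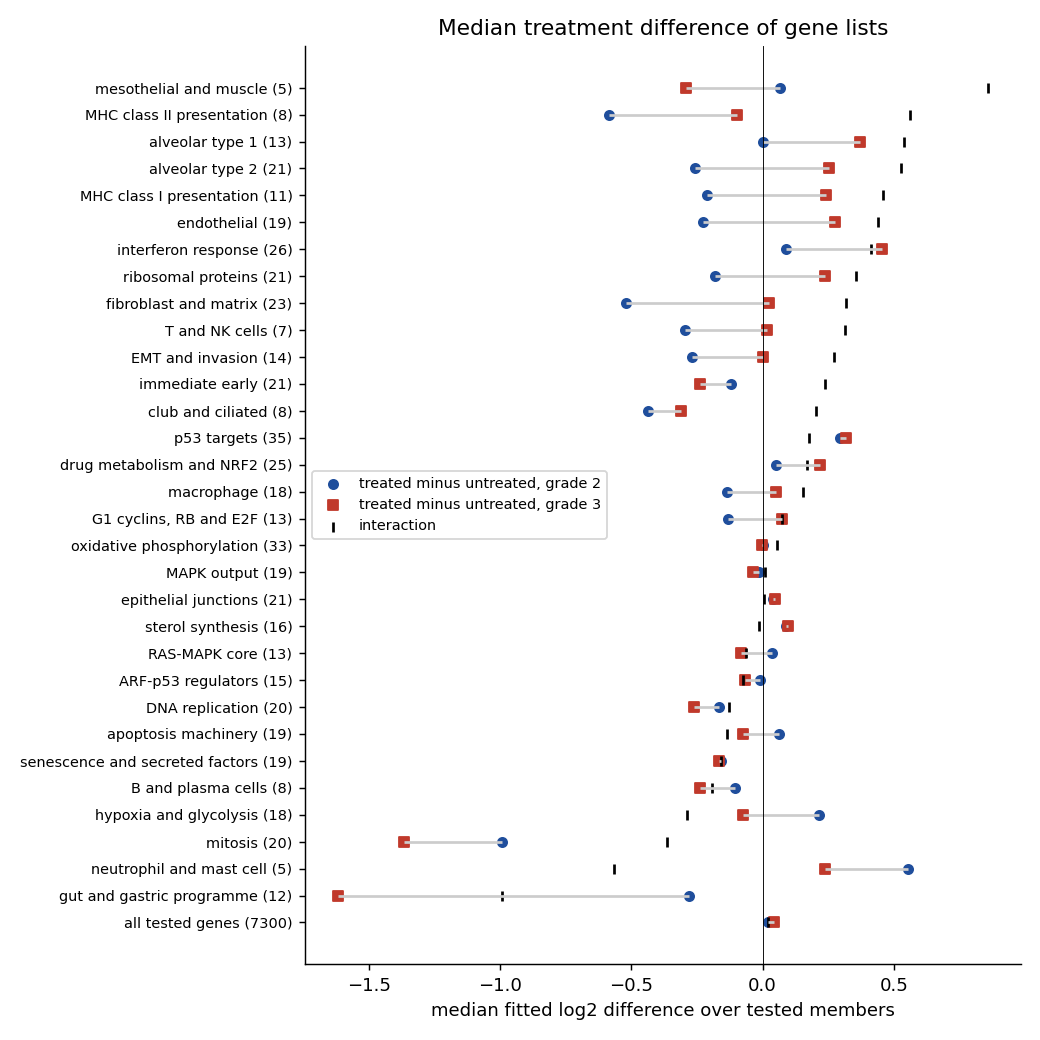
Median fitted log2 difference (x axis) over the tested members of gene lists (y axis, number tested in brackets), for treated minus untreated in grade 2 (blue circles), in grade 3 (red squares) and for the interaction (black ticks). The sex check list and the erythroid and platelet list are not drawn. The gut list has a median interaction of -0.99 over the tested members, which is -0.44 with no filter and -0.32 with the mouse as a fixed term. The mitosis list has a median interaction of -0.37. The p53 targets have median treatment differences of 0.32 and 0.29 in grades 3 and 2, and a median interaction of 0.18.

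Mitosis genes had lower mean signals in the treated groups of both grades. Of 20 tested, 4 fell past the threshold in grade 3, against 20 of all 7300 genes. The list mean was 6.86 to 8.56 in untreated and 6.31 to 7.01 in treated grade 3, which overlapped through 8584T3. In grade 2 it was 6.93 to 7.80 in untreated and 5.89 to 6.66 in treated tumours. The median difference of the genes was -1.37 in grade 3 and -0.99 in grade 2 over 20 tested members. Cdc20, an activator of the anaphase-promoting complex, fell by 1.51 in grade 3 (limma adjusted p = 0.0438), and its difference in grade 2 was -1.42 (limma adjusted p = 0.146). The median interaction of the list was -0.37, with 3 of the 20 members above 0 (52.8% of all genes). An unadjusted p under 0.05 was found for 1 member, below 0 (3.71% of all genes). The median was -0.10 without mouse 8700, -0.09 without mouse 8629 and -0.72 without 8584T3, and its lowest value over all alternatives was -0.99. Anln, the cytokinesis protein anillin, had 7.46, 7.43, 7.49 and 8.10 in untreated grade 3, above all other tumours, and 5.86 to 6.28 in treated grade 3. It had 6.58 and 6.48 in mouse 8700, 7.33 and 7.24 in the grade 2 tumours of mouse 8565, and 6.32, 6.20, 5.80 and 6.12 in treated grade 2. It fell by 1.62 (SE 0.22, limma adjusted p = 0.00186) in grade 3, and the difference in grade 2 was -0.87 (SE 0.22, limma adjusted p = 0.264). Its interaction was -0.75 (SE 0.26, limma adjusted p = 0.539), and -0.36 within mice 8688 and 8565. Cdca3, which triggers mitotic entry, and Mad2l1, a spindle checkpoint protein, had -0.70 (SE 0.37) and -0.68 (SE 0.35), and Mcm4 of the replication helicase -0.64 (SE 0.38). Cdca3 was above the array median on only 6 arrays.

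Glycolysis genes had interactions mostly below 0. Of 18 tested genes of hypoxia and glycolysis, 5 had an interaction above 0 (52.8% of all genes), with a median of -0.29. Below 0, 4 had an unadjusted p under 0.05 (3.71% of all genes). Pgk1, phosphoglycerate kinase, had 11.28, 11.12, 10.91 and 11.49 in untreated and 10.51 to 11.10 in treated grade 3, with a median of 10.90. In grade 2 the order was turned, with 10.52, 10.53, 11.14 and 10.31 in untreated and 11.12, 11.40, 11.16 and 11.12 in treated tumours. The means parted crosswise, and in both grades the groups overlapped, in grade 2 only through 8565T3. The interaction was -0.91 (SE 0.26, limma adjusted p = 0.539), and -0.76 within mice 8688 and 8565. Tpi1 and Pgam1, enzymes of the same pathway, had -0.63 (SE 0.28) and -0.38 (SE 0.17).

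Death and secretory genes gave mixed values. Of 19 tested genes of the apoptosis machinery, 4 had an interaction above 0 (52.8% of all genes), with a median of -0.13. Cycs, cytochrome c, had -1.31 (SE 0.49) and Bok, a BCL2 family member, -1.26 (SE 0.49), while Cflar, an inhibitor of death receptor signalling, had 0.51 (SE 0.17). Cxcl2, a chemokine for neutrophils, had -2.68 (SE 0.96), and Cd177, a neutrophil surface protein, -3.34 (SE 1.01). Cxcl2 was above the array median on only 4 arrays and Cd177 on 6, so both values rest largely on low signals. Cd177 was 8.90, 7.21, 6.08 and 9.47 in untreated grade 3 and 3.10, 3.79, 3.66 and 4.45 in untreated grade 2. Only 5 of the 18 measured neutrophil and mast cell genes were tested, and 1 of the 5 had an interaction above 0 (52.8% of all genes). Of the secreted factors of senescence, a list that also holds Cxcl2, Igfbp7 had 0.58 (SE 0.25) and the lung chemokine Cxcl15 0.57 (SE 0.21). Of the 19 tested, 8 had an interaction above 0 (52.8% of all genes), with a median of -0.16. Unadjusted p-values under 0.05 were found for 2 above 0 and 2 below 0, against 5.40% and 3.71% of all genes.

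A treated group stood apart without overlap for 6 of the 7300 genes. The 2 of these with an unadjusted interaction p under 0.05 were Zc3h10, a zinc finger protein, and Usp39, a splicing factor, both high in treated grade 2. Usp39 had 10.88, 10.81, 10.90 and 10.92 there, against 10.14 to 10.81 in all other tumours, with the nearest tumours alike to the second decimal, and Zc3h10 had 7.06, 6.87, 6.86 and 6.86 against 6.28 to 6.84. The gaps to the nearest tumour were narrow. Their interactions were -0.32 (SE 0.15) and -0.35 (SE 0.15), with limma adjusted p = 0.539 for both.

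The sex genes show how far mouse and treatment are tied together. Xist, an RNA made from the silenced X of females, had 4.33 in the male 8639T4 and 11.16 to 11.37 in the other treated grade 2 tumours. The Y-linked Eif2s3y had 11.04 in 8639T4 and 1.82 to 2.02 in the others. The interaction was 2.15 (SE 1.25) for Xist and -1.63 (SE 1.63) for Eif2s3y. Without this 1 male tumour they were 1.02 and -0.13, so Xist kept part of its value. Both genes passed in grade 3, where sex and treatment cannot be told apart.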

How the data were processed

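RNA of 18 tumours (100 ng each, amplified and labelled with biotin) went onto 1 array per tumour, as the labels' protocols state. Values deposited by the authors are log2 signals for each probe set. The submitters' processing notes name GCRMA 2.20.0 and R 2.11.0. GCRMA normalises the arrays to a common distribution, which removes differences in total RNA; any scan date or batch is not given in the sources used. Values ran from 0.936 to 14.1, and array correlations from 0.974 to 0.997. Of 22690 probe sets, 20380 had 1 gene symbol, 691 several, 1555 none and 64 were controls; 20351 matched a reference table by gene ID. Each of 12393 genes took its probe set with the highest mean, and the 7300 that exceeded their array's median on 4 or more arrays entered the test. Of these, 4 passed that filter through a single group. No deposited column was left unused.

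limma 3.58.1 in R 4.3.3 fitted 4 group means to all tumours, with the mouse as a random block (correlation 0.259, 14 residual and 3.80 prior degrees of freedom) and Benjamini-Hochberg adjustment at 0.05. This correlation sets the weight of each tumour, so fitted differences can depart from those of plain means. Values within mice are mouse 8688 (grade 3 minus grade 2) minus the same in mouse 8565; they equal the fit with the mouse as a fixed term. Members, 33 gene lists, classes and alternatives were chosen with earlier results of these data known. Genes were named if they were Cdkn1a, Mdm2 or Cdkn2a, if they were among the up to 5 widest gaps per class without overlap, if they were among the 3 smallest p-values of a list, or as further list members. Eif4ebp1, Itgb3bp, Gbp2b and Il1r1 were added because they passed the threshold in grade 2, and were not followed through the alternatives. The alternatives that leave out a whole mouse were added after seeing the data. Promoters came from RefSeq on GRCm38.p6. A simulation with known differences checked the fit.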

Additional observations from a re-analysis of the deposited data

Results flagged for a closer look

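In 344 groups of 4 or 6 tumours, 26 had a highest or lowest tumour whose gap to the next exceeded Dixon's critical value; chance gives about 1 in 20. The tumour 8639T4, from the only other treated mouse, stood apart in treated grade 2 for Lyz2 (12.81), Oasl2 (7.51), H2-K1 (11.79), Cdca3 (4.63), Xist (4.33) and Eif2s3y (11.04), and for the means of the mitosis (5.89), alveolar type 2 (12.04) and MAPK output (9.60) lists. In the same group 8688T9 stood apart for Plk2 (7.51) and Pgk1 (11.40), 8688T8 for Zc3h10 (7.06) and 8688T10 for Tpi1 (11.16). In treated grade 3, 8688T3, the tumour with the highest 3' signal, stood apart for H2-Ab1 (11.99) and Etv5 (6.69), and 8688T1 for Tapbp (11.95). In untreated grade 3, 8584T3 stood apart for Lyz2 (11.97) and the p53 target mean (8.77), 8565T1 for Psmb9 (8.38) and the alveolar type 1 mean (9.92), and 8629T12 for Anln (8.10) and the hypoxia and glycolysis mean (10.38). In untreated grade 2, 8565T3 stood apart for H2-Ab1 (11.19), Ccnd1 (10.49) and Cycs (11.92), and 8700T1 for Bok (5.36).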

How the results depend on the processing

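Of 73 named genes, 69 kept the sign of their interaction under each alternative that gave a value for them, 25 to 33 per gene. Of 2360 such values, 33 were past the interaction threshold. These included 2 of Muc5b and 1 each of Hopx, Ephx1, H2-K1, H2-Eb1 and Pgk1. Cdkn1a turned to -0.03 (-0.0281) with the mouse as a fixed block and with only the mice that held both grades, and to -0.38 without mouse 8700; Ifit1 turned to -0.70 with the fixed block and with those mice; Rasa1 turned to 0.15 with the mean of its probe sets; and Hbb-b2, near 0, was 0.15 without mouse 8565 and ran from -0.38 to 0.20 when single tumours were left out. The count of genes past the interaction threshold was 1 with sex as a covariate, 124 with array weights, 3 without mouse 8565, 1 without mouse 8629, 0 to 15 with single tumours left out and 0 in the remaining alternatives. The count with an unadjusted p under 0.05 was 148 with the mouse as a fixed block, 162 with only the mice that held both grades, 1025 with no filter, 1724 with array weights, 293 without mouse 8700 and 273 to 1346 with single tumours left out. Of these, untreated grade 3, untreated grade 2 and a treated group stood apart for 61, 55 and 11 genes with the fixed block, 68, 63 and 4 with the mice of both grades, 635, 645 and 106 with array weights and 92, 165 and 6 without mouse 8700. With no filter, untreated grade 3 stood apart for 451 and a treated group for 45. A treated group stood apart for 4 without mouse 8565 and 13 without mouse 8629. With single tumours left out they ran from 152 to 435, 73 to 889 and 4 to 64. For treatment, the counts in grade 3 and grade 2 were 272 and 37 with no animal term, 10 and 2 with sex, 107 and 224 with the mice of both grades, 64 and 10 with no filter, 374 and 1975 with array weights, 17 and 0 without mouse 8565, 8 and 9 without mouse 8629, and 12 to 164 and 2 to 34 with single tumours left out. In grade 2 the count was also 10 without both tumours with a 3' excess, 9 with a floor of log2 5 and 0 without mouse 8700. The cause of these shifts was not tested. With only the mice of both grades, all treated tumours were from mouse 8688 and all untreated ones from mouse 8565. The only untreated grade 3 tumour was then 8565T1. The treatment counts of that alternative thus compare a single mouse with another, and cannot tell treatment from mouse. They are not a stronger result for treatment in either grade. No paired analysis was possible because the numbers in the labels count tumours within a mouse and pair no tumours across groups; grades were instead compared within mice by the fixed block above. Another background correction was not run, since scanner files are not used here.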
